A study of Mus musculus with 8 samples.

Results

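Deep intronic tiles were the 1-kb stretches of a fixed grid over mouse chromosomes 1 to 19 (mm10) that lay wholly within a protein-coding gene, touched no annotated exon and had their centre more than 10 kb from every protein-coding transcription start site (TSS). Of 2462736 tiles on the grid, 573110 met this rule (23.3%). They fell in 57864 introns of 9878 genes, of 20807 protein-coding genes on these chromosomes. The median gene held 17 such tiles, and Lsamp, which encodes a neuronal cell adhesion protein, held 2109. A tile in several genes was given to the shortest of them, which concerned 8441 tiles (1.47%). The 4612 genes with 20 or more tiles were also compared as genes.

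SOX9 CUT&Tag had been performed on spinal cord nuclei of adult wild-type C57BL/6 mice, either uninjured or killed 1 d.p.i. after a contusion at T9. Tissue was a 5-mm segment at the lesion or at the matching level, cleared of meninges, and nuclei were sorted on 7AAD. Males (M) and females (F) gave a SOX9 library each per condition, and each nuclei sample of 150000 gave up 20% of its nuclei for a control that received the secondary antibody only, which makes 8 libraries in 4 groups of 2. For sequencing, several animals were pooled per condition, as many females as males, but the number in each library was not stated. M and F were different animals, and sex could not be told apart from differences between individuals.

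SOX9 is a high-mobility-group transcription factor that is needed for the switch from neuronal to glial fate in the developing spinal cord, and it stays on in astrocytes and ependymal cells of the adult. In CUT&Tag, an antibody bound to chromatin tethers a transposase that cuts and tags the DNA around it, although the enzyme also cuts open chromatin without an antibody. Introns hold many of the enhancers of mammalian genes, often far from any promoter, which makes the deep intron a place to look for distal occupancy.

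Sequencing depth differed between libraries. The SOX9 libraries held 1901433 (uninjured M), 7248962 (uninjured F), 2538725 (1 d.p.i. M) and 2396777 (1 d.p.i. F) rebuilt fragments, and the controls 22848, 47049, 53341 and 10948 in the same order. Coverage of each tile was divided by the mean of all tiles in its library, so a value of 1 is the library mean. On that scale a single 200-bp fragment was worth 1.05, 0.313, 0.763 and 0.804 in the SOX9 libraries, and 103, 52.7, 44.6 and 193 in the controls, where tiles were therefore compared in bulk and single values are a description. Control libraries also shared fragments with SOX9 libraries. Of the isolated deep intronic fragments in each control, 94.0%, 84.8%, 89.2% and 90.8% had both ends in some SOX9 library, and at most 0.103% did after a shift of 100 bp, whereas isolated fragments of 1 SOX9 library recurred in another for 1.54% to 4.19%. The SOX9 library of the same condition and sex held both ends of 33.5%, 43.5%, 25.5% and 18.3% of these control fragments. For the 1 d.p.i. M and F controls, the uninjured F SOX9 library held more, 27.3% and 32.5%. Every comparison with the controls below, paired or not, carries that overlap, whose part in the results was not tested.

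Deep intronic tiles carried slightly more coverage than the average tile, to nearly the same extent in every SOX9 library. Their mean was 1.145, 1.144, 1.148 and 1.149 times the library mean in uninjured M, uninjured F, 1 d.p.i. M and 1 d.p.i. F. The means were 1.144 ± 0.00112 (SD, n = 2) uninjured and 1.149 ± 0.000998 (SD, n = 2) at 1 d.p.i., and the groups did not overlap. The difference was only 0.00503 on the log2 scale (exact two-sided permutation test, p = 0.333, the smallest that 2 against 2 can give). In the controls the mean was 1.140, 1.086, 1.045 and 1.192, a range that took in all SOX9 values. SOX9 libraries stood 0.04 log2 units above controls (exact two-sided permutation test, n = 4 against 4, p = 0.314, where 0.0286 is the smallest possible). That difference rested on single controls, left out in turn after the data were seen. It was 0.00905 without the 1 d.p.i. M control, 0.0265 without the uninjured F control, 0.0497 without the uninjured M control and 0.0725 without the 1 d.p.i. F control (exact permutation tests, n = 4 against 3, p = 0.600, 0.600, 0.314 and 0.0286). Counted as fragments, 26.6% to 26.8% of each SOX9 library lay in these tiles, beside 24.3% (95% Wilson interval 24.0% to 24.7%) in the 1 d.p.i. M control and 27.7% (26.8% to 28.5%) in the 1 d.p.i. F control. Such intervals cover counting error only.

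Against the rest of the grid, deep introns lay between intergenic DNA and the surroundings of promoters. Intergenic tiles, also over 10 kb from any protein-coding TSS, averaged 0.592, 0.422, 0.499 and 0.553 times the library mean in the SOX9 libraries, so that deep introns exceeded them by 0.95, 1.44, 1.20 and 1.05 log2 units (mean 1.16). The gap was of similar size in the controls, at 1.23, 1.21, 1.18 and 1.40. Exon-free tiles 1 to 10 kb from a TSS averaged 1.372, 1.438, 1.431 and 1.382, and deep introns stood at -0.29 log2 units relative to them. Both differences had the same sign in 4 of 4 libraries, which for the exact two-sided sign-flip test means p = 0.13, the smallest that 4 libraries can reach. Median GC content was 41.8% in deep introns, 40.0% in intergenic tiles and 43.3% in the tiles near promoters. Within 38 to 42% GC, deep intronic tiles averaged 0.839, 0.761, 0.780 and 0.832 and intergenic tiles 0.491, 0.288, 0.366 and 0.439, so in that band too deep introns lay above intergenic tiles in every SOX9 library. Tiles near promoters were not compared by GC content.

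Coverage of deep introns was lower in the longest genes. Over the SOX9 libraries it averaged 1.35 ± 0.0277 (SD, n = 4) in genes under 50 kb, 1.37 ± 0.0248 at 50 to 100 kb, 1.32 ± 0.0226 at 100 to 200 kb, 1.16 ± 0.00622 at 200 to 500 kb and 0.841 ± 0.0297 in the 215 genes of 500 kb or more, which held 28.0% of all deep intronic tiles. The longest class differed from the shortest by -0.62, -0.75, -0.75 and -0.63 log2 units in uninjured M, uninjured F, 1 d.p.i. M and 1 d.p.i. F (mean -0.69, exact two-sided sign-flip test, n = 4, p = 0.13). Controls gave -0.71, -0.65, -0.78 and -0.78, and the slope differed neither between SOX9 and control beyond the spread (exact permutation test, n = 4 against 4, p = 0.400) nor between conditions (exact permutation test, n = 2 against 2, p = 0.667). GC content ran down along the same classes, from a median of 43.6% to 39.8%. Among tiles of 38 to 42% GC, the 5 classes averaged 0.750, 0.851, 0.861, 0.813 and 0.748, so the shortest and the longest genes were level.

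Intron length gave a shallower gradient. SOX9 coverage averaged 1.24 ± 0.0206 (SD, n = 4) in introns under 10 kb, 1.22 ± 0.0135 at 10 to 20 kb, 1.26 ± 0.0164 at 20 to 50 kb, 1.14 ± 0.0103 at 50 to 100 kb and 0.945 ± 0.0188 at 100 kb or more. The difference between the end classes was -0.35, -0.44, -0.42 and -0.36 log2 units in the SOX9 libraries (mean -0.39, exact two-sided sign-flip test, n = 4, p = 0.13) and -0.41, -0.42, -0.38 and -0.39 in the controls (SOX9 against control, exact permutation test, n = 4 against 4, p = 0.800). Condition made a difference of 0.0054 (exact permutation test, n = 2 against 2, p = 1.0). Among tiles of 38 to 42% GC, the 5 classes averaged 0.796, 0.802, 0.839, 0.809 and 0.774, and the difference between the end classes was -0.04. With gene length held within 100 to 200 kb, the classes averaged 1.25, 1.28, 1.42, 1.35 and 1.01. With intron length held within 20 to 50 kb, the gene classes still ran 1.38, 1.48, 1.42, 1.17 and 0.835.

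Position along the gene gave gradients too. Tiles 10 to 20 kb from a TSS averaged 1.41 ± 0.0275 (SD, n = 4), and the mean went through 1.29, 1.11 and 0.974 to 0.739 ± 0.039 beyond 200 kb. Among tiles of 38 to 42% GC this range narrowed to 0.878 and 0.685. First introns averaged 1.24 and introns from the eleventh on 1.03. Distance to the nearest exon mattered little within 50 kb, where class means stayed between 1.14 and 1.22, and tiles beyond 50 kb averaged 0.895.

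Base composition set coverage apart more than any length did. SOX9 means ran from 0.335 ± 0.0324 (SD, n = 4) in deep intronic tiles under 34% GC, through 0.527, 0.803, 1.20 and 1.83, to 3.15 ± 0.236 in tiles of 50% GC or more. The controls ran from 0.313 ± 0.0452 to 3.14 ± 0.204. The log2 ratio of the end classes was 2.96, 3.49, 3.39 and 3.10 in the SOX9 libraries and 3.33, 3.56, 3.27 and 3.19 in the controls (difference -0.10, exact two-sided permutation test, n = 4 against 4, p = 0.486).

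Repeated sequence was compared between SOX9 and control libraries after the data were seen. Tiles of which 90% or more is soft-masked as repeats averaged 1.01, 0.521, 0.693 and 0.817 in the 4 SOX9 libraries, in the same order, and 0.460, 0.448, 0.387 and 0.462 in the controls. The 4 SOX9 values lay above the 4 control values, uninjured M highest and uninjured F, the deepest library, lowest. Within 38 to 42% GC they overlapped, at 0.778, 0.362, 0.505 and 0.622 with SOX9 and 0.376, 0.298, 0.289 and 0.421 in the controls. As a log2 ratio to tiles under 10% masked, the mean was -1.1 ± 0.462 (SD, n = 4) with SOX9 and -1.87 ± 0.0743 in controls, a difference of 0.77 (exact two-sided permutation test, n = 4 against 4, p = 0.0286, or 0.0858 after Benjamini-Hochberg adjustment over 6 such comparisons). By the study's methods, each control came from the nuclei sample of its SOX9 library, a pairing that the shared fragments followed only in the uninjured libraries. As pairs the differences were 1.3, 0.09, 0.72 and 0.96 (exact two-sided sign-flip test, n = 4, p = 0.13). Leaving out any 1 control gave 0.741 to 0.8 (exact permutation tests, n = 4 against 3, p = 0.0571). Tandem repeats were compared in the same way. A tile was said to hold a tandem window where some 200-bp window had at least 80% of its bases equal to the base a fixed 2 to 100 positions on, and 7404 deep intronic tiles did (1.29%). They averaged 2.43, 2.38, 2.36 and 2.16 with SOX9 and 1.56, 1.64, 1.59 and 1.61 in the controls, and the log2 ratio to all other deep intronic tiles was 1.04 ± 0.0809 (SD, n = 4) against 0.531 ± 0.0921 (difference 0.51, exact permutation test, n = 4 against 4, p = 0.0286, adjusted 0.0858). As pairs the differences were 0.65, 0.47, 0.45 and 0.48 (exact sign-flip test, n = 4, p = 0.13). Neither differed by condition beyond what 2 against 2 can show (exact permutation tests, p = 1.0 and 0.333, n = 2 against 2).

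Most deep intronic tiles held few fragments. Without any coverage were 43.8%, 15.2%, 38.1% and 37.1% of them in the SOX9 libraries, or 43.8%, 48.1%, 46.7% and 44.2% after thinning to the depth of uninjured M, so the low share of uninjured F went with its depth. In all, 26250 tiles had none in any of the 8 libraries. Unsequenced bases lay in 1441 tiles. Tiles at 3 times the library mean or more made up 11.1%, 7.78%, 10.1% and 10.1% (difference between conditions 0.65 percentage points, exact permutation test, n = 2 against 2, p = 1.0). Thinned to the depth of uninjured M, the shares were 11.1%, 11.2%, 11.2% and 11.1%, beside 9.07% to 9.27% of all tiles, 2.82% to 4.20% of intergenic tiles and 14.7% to 15.5% of tiles near promoters. Across the 573110 deep intronic tiles, coverage of SOX9 library pairs correlated with r from 0.314 to 0.514, or from 0.293 to 0.364 after thinning. Tiles share depth and base composition, so these values are given as a description.

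High in all 4 SOX9 libraries, at 3 times the mean or more, were 9033 deep intronic tiles in 2128 genes. That was 1.58% of them, beside 1.95% of all tiles, 0.345% of intergenic tiles and 2.97% of tiles near promoters under the same rule. They averaged 7.29, 8.07, 8.60 and 7.48 in the SOX9 libraries. In the controls, not used in the choice but sharing most isolated fragments with SOX9 libraries, they averaged 7.97, 7.17, 7.59 and 8.28. Their median GC content was 50.4%, and 54.0% had 50% GC or more, beside 6.69% of deep intronic tiles in all. Of 6601 runs of neighbouring high tiles, 77.5% were a single tile, and the longest ran over 14 tiles of Ctif, a translation factor for newly exported mRNA. Gse1 held 156 high tiles of 279 (55.9%), and Gnao1, which encodes the neuronal G protein subunit Gαo, 62 of 119 (52.1%).

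The tiles with the highest minimum over the SOX9 libraries reached far above the rest, and most of them had control coverage of the same order in some controls. Control values of single tiles rest on 0 to 39 fragments and are given as a description. Whether these tiles match ribosomal DNA or regions commonly excluded from such data was not tested. First was a tile in intron 1 of Filip1l, chr16:57391001-57392000, with 184, 169, 333 and 300 times the library mean with SOX9 and 571, 851, 1580 and 951 in the controls. Tiles in Cdk8, the kinase of the Mediator complex (SOX9 114, 106, 203 and 148; controls 242, 363, 428 and 99.3), Camk1d, a calmodulin-dependent kinase (SOX9 103, 109, 213 and 196; controls 289, 842, 1930 and 226), and Jarid2, a subunit of Polycomb repressive complex 2 (SOX9 63.6, 61.8, 159 and 179; controls 0, 927, 1780 and 530), were among the next. The other tiles named by this rule were those of Pde4b, a cAMP phosphodiesterase (SOX9 125, 162, 171 and 150; controls 0, 236, 52.4 and 134), Ppp1r16b, a regulatory subunit of protein phosphatase 1 (SOX9 69.9, 138, 195 and 157; controls 83.2, 61.7, 47.7 and 153), Slain1, a microtubule plus-end protein (SOX9 76.4, 89.3, 60.3 and 74.5; controls 0, 191, 0 and 0), and Smo, the Hedgehog signal transducer (SOX9 162, 58.6, 82.8 and 109; controls 0, 0, 44.6 and 0). Deep intronic tiles at 30 times the mean or more in every SOX9 library numbered 27, of which 13 held a tandem window (48.1%). That share was 5.92% of those at 3 times the mean or more, and 1.29% of all deep intronic tiles.

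Sequences of 200 bp around the highest point of the mean SOX9 coverage are given for Filip1l, the highest tile, for Slain1, just under the tandem threshold (79.5% at 39 bp), and for Ppp1r16b, which holds a SOX word. They are from GRCm38 (mm10), forward strand, at chr16:57391405-57391604, chr14:103677659-103677858 and chr2:158740967-158741166. Capitals mark ACAATG, the core of the SOX motif, or its reverse complement CATTGT, and TGANTCA, which is its own reverse complement. The latter is a relaxed form of the AP-1 consensus TGA(G/C)TCA that admits any base at the centre. It is called the AP-1 word here, and every share and count given for it includes sequences outside the consensus.
Filip1l: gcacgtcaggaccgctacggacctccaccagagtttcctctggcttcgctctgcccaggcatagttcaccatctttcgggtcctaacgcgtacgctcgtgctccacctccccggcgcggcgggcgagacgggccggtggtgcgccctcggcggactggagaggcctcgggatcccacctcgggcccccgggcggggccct
Slain1: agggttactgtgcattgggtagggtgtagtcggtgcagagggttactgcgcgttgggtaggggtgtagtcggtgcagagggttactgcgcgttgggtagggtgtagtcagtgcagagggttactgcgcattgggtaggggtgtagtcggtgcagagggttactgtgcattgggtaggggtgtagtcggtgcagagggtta
Ppp1r16b: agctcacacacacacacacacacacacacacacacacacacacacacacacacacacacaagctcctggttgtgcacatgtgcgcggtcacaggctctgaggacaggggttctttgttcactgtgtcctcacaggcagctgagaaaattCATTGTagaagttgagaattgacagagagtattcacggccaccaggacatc
The central 20 bases of the Filip1l window occur 3 times on chromosomes 1 to 19, those of Camk1d and of Jarid2 5 times each and those of Cdk8 2 times. Those of Smo occur 2811 times, 23 of them in the tile and its neighbours. A SOX word is found in 12.3% of all 200-bp windows of deep intronic tiles and in 12.1% of those of the whole grid, an AP-1 word in 6.03% and 5.80%.

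Averaged over a gene, deep intronic coverage was reproducible, with r from 0.910 to 0.949 between SOX9 libraries across the 4612 genes. The median gene stood at 1.03, with 0.406 and 2.51 at the 10th and 90th percentiles. Across these genes the mean followed GC content (r = 0.647) and not the logarithm of gene length (r = -0.05), again as a description.

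Among the genes with the highest minimum over the SOX9 libraries, Nfix, a nuclear factor I family transcription factor expressed in glia, averaged 6.56, 8.21, 9.21 and 8.04 in the 4 SOX9 libraries, in the same order, with 8.41, 8.39, 4.35 and 6.34 in the controls. The G protein subunit gene Gna12 had 6.54, 8.74, 8.44 and 6.39, and the inositol phosphate kinase gene Itpk1 5.97, 8.72, 8.66 and 8.34. Ppp1r16b (6.39 to 12.6), 5031439G07Rik (7.20 to 12.7), the Arf GTPase-activating gene Adap1 (7.12 to 9.72) and Gse1 (5.78 to 8.0) were also in this set. The conditions overlapped in all of these genes but Ppp1r16b, and their controls were of the same order, from 6.38 in Ppp1r16b to 13.8 in Adap1 as the mean of 4. The Adap1 mean rested on the uninjured M control, at 38.1, with 4.57, 5.3 and 7.29 in the other controls.

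At the other end, the intestinal mucin gene Muc2 and the anion exchanger gene Slc26a6 were at 0 in every library, but all of their deep intronic tiles (21 and 38) hold unsequenced bases, so nothing could be measured there. Of genes without such gaps, the lowest maximum over the SOX9 libraries was that of the vomeronasal receptor gene Vmn2r56 (0.0994, 0.112, 0.101 and 0.0473). The cytochrome P450 gene Cyp2c39 (0.13, 0.0442, 0.109 and 0.0884), Vmn2r71 (0.0855, 0.0349, 0.145 and 0.136), Slc22a30, of the organic anion transporter family (0.134, 0.0984, 0.138 and 0.149), and Vmn2r103 (0.0896, 0.0205, 0.163 and 0.0841) came next in that order. Vmn2r56 has 77.1% of its deep intronic sequence soft-masked.

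Lists of genes with long introns typical of each cell type were described by their medians, over the listed genes with 20 or more deep intronic tiles, beside 1.03 for all 4612 genes. The lists also differed in GC content, which coverage followed across genes, from a median of 39.6% in the neuronal list to 45.3% in the injury list, beside 42.5% for all genes. The medians of coverage are not adjusted for it. Oligodendrocyte lineage genes had the highest median, 1.67 (18 of 23 listed), and it was 1.53, 1.59, 1.77 and 1.90 in the 4 SOX9 libraries. Within that list Mbp, which encodes myelin basic protein, stood at 5.25, 7.46, 5.88 and 5.20, the RNA-binding regulator of myelination Qk at 2.63, 4.19, 2.97 and 2.15, and the zinc finger repressor gene Zfp536 at 2.25, 2.5, 3.03 and 2.66. Vcan, a chondroitin sulfate proteoglycan of oligodendrocyte precursors, was lowest (0.264 as the mean of 4).

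Astrocyte genes, the cells in which SOX9 is best known in the adult cord, had a median of 0.995 (18 of 23 listed), beside 1.03 for all genes, without adjustment for GC content. They ran from Gpc5, a glypican (0.394), to Lrig1, a brake on growth factor receptors (3.01), with the glutamate transporter genes Slc1a2 (1.61, 1.40, 1.78 and 1.27) and Slc1a3 (1.26, 1.34, 1.39 and 1.69) and the glial transcription factor gene Nfia (1.43, 1.27, 1.55 and 1.79) in the upper part. Neuronal genes had a median of 1.03 (20 of 20), from Nrg1, a neuregulin (0.552), to Rbfox3, which encodes the neuronal nuclear antigen NeuN (3.14, 4.56, 3.35 and 2.81). Injury response genes had 1.12 (11 of 16), from the interleukin 1 receptor gene Il1r1 (0.604) to the RNA-binding gene Samd4 (2.7). Runx1 is in that list and in the microglial list.

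Lower medians belonged to microglia and immune genes at 0.668 (15 of 16; Ptprc, the leukocyte antigen CD45, 0.452, to Srgap2 1.48), endothelial and mural genes at 0.536 (11 of 15; Adgrl4 0.296 to the transcription factor Ebf1 1.43), genes typical of other tissues at 0.499 (15 of 16; the photoreceptor gene Rp1 0.256 to thyroglobulin, Tg, 1.08) and ependymal and cilia genes at 0.449 (11 of 12; the axonemal dynein gene Dnah11 0.311 to Cfap43, a gene of cilia, 0.844). Controls gave similar levels from 1 to 327 fragments per list and library. Pooled over the deep intronic tiles of these genes, SOX9 and control means were 1.31 and 1.22 for oligodendrocyte genes, 0.765 and 0.693 for astrocyte genes, 0.928 and 0.892 for neuronal genes and 1.75 and 1.67 for injury genes. They were 0.684 and 0.810 for microglia, 0.793 and 0.736 for endothelial and mural cells, 0.468 and 0.465 for ependymal cells and 0.445 and 0.399 for other tissues, beside 1.13 and 1.1 for all genes. In bulk nuclei, more cells of a type and more signal per cell cannot be told apart.

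At 1 d.p.i. few single tiles passed the test. The limma fit on log2 coverage covered the 149496 tiles of the grid that averaged at least 3 over the SOX9 libraries, and 37336 deep intronic tiles were among them (6.51%). At an adjusted p under 0.05, 6 deep intronic tiles rose (0.0161%, beside 0.0408% of all tiles tested) and 4 fell (0.0107%, beside 0.00669%). At an unadjusted p under 0.05, 860 were higher (2.3%, beside 2.21%) and 632 lower (1.69%, beside 1.93%). With scaling by a trimmed mean of log ratios these were 553 and 555 (2150 and 2431 of all tiles tested), so the excess of higher tiles depended on the scaling. The fit's shared prior carried almost all weight (299000 degrees of freedom), so a tile's own spread hardly entered. The counts rested on single libraries: without uninjured M 3 rose and 0 fell, without uninjured F 115 rose and 14 fell, without 1 d.p.i. M 0 rose and 21 fell, and without 1 d.p.i. F 0 rose and 2 fell.

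The rises fell in genes of diverse function. In each tile both 1 d.p.i. values lay above both uninjured values, which selection by p favours. Coverage of a tile in intron 2 of Rassf8, a Ras association domain gene, was 0, 4.05, 13.7 and 19.1 in the 4 SOX9 libraries, in the same order (log2 change 3.47 ± 0.66 SE, limma adjusted p = 0.00214). In Rnf125, which encodes a ubiquitin ligase of antiviral signalling, it was 2.79, 0.313, 12.8 and 18.2 (3.27, limma adjusted p = 0.00565), and in Ctnna2, the neuronal α-catenin, 0.932, 0.602, 10.0 and 18.1 (3.48, limma adjusted p = 0.00642). All 3 had no control fragment.

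Galnt2, an enzyme that starts mucin-type O-glycosylation, had a tile at 0.727, 9.28, 23.6 and 27.2 (2.9, limma adjusted p = 0.0101). Vmp1, a membrane protein of autophagosome formation, had one at 0.743, 4.94, 22.4 and 16.3 (2.92, limma adjusted p = 0.0125). The sixth, in Aff1, a scaffold of the super elongation complex, was outside the naming rule and chosen after its values were seen (0, 4.27, 13.0 and 11.7; 3.05, limma adjusted p = 0.0247). These values rested on 0 to 27 fragments a library. The uninjured F library, the deepest, held 11 to 23 of them in Rassf8, Galnt2, Vmp1 and Aff1, and uninjured M at most 1. Without uninjured M the log2 change was 1.87, 1.4, 1.85 and 1.43 in these 4 tiles, and the adjusted p 0.983 to 1.0. Without uninjured F it was 5.06, 4.4, 3.98 and 4.68. In Rnf125 it was 4.28 without uninjured M and 2.26 without uninjured F (limma adjusted p = 0.0564), and in Ctnna2 3.07 to 3.89 whichever library was left out.

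The falls were in a tile of Ncoa1, a steroid receptor coactivator (24.6, 17.3, 4.15 and 0.543; log2 change -3.26 ± 0.63 SE, limma adjusted p = 0.00292), Map6, a microtubule stabiliser of neurons (30.7, 5.58, 1.65 and 0.0885; -3.62, adjusted p = 0.00819), Slc38a9, the lysosomal arginine sensor (14.4, 9.68, 2.57 and 0; -3.31, adjusted p = 0.0306), and Spats2 (23.2, 21.9, 7.45 and 1.23; -2.64, adjusted p = 0.0400). In each, 1 d.p.i. F was the lowest library and uninjured M the highest. The groups did not overlap, which selection by p favours. With sex as a block, the limma adjusted p was 0.0787 in Slc38a9 and 0.34 in Spats2. Among the rises it was 0.114 in Galnt2, 0.084 in Vmp1 and 0.0739 in Aff1. The calls in Ncoa1, Map6, Rassf8, Rnf125 and Ctnna2 passed with that block. Without 1 d.p.i. F the log2 change was -2.18 in Ncoa1, -2.68 in Map6, -2 in Slc38a9 and -1.53 in Spats2, with a limma adjusted p of 0.773 in Map6 and 1.0 in the other 3. Without uninjured M it was -3.01, -2.44, -3.04 and -2.59 (limma adjusted p from 0.447 to 1.0), without 1 d.p.i. M -4.34, -4.55, -4.62 and -3.74, and without uninjured F -3.51, -4.8, -3.59 and -2.68. Each of the 10 calls, rises and falls, was lost on leaving out any of at least 2 libraries, and over 9 or 10 alternative settings between 1 and 6 kept it.

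All 4 falls, and the rises in Rassf8 and Ctnna2, held a tandem window, with the best match at a spacing of 38 bp in Ncoa1, 24 bp in Map6, 26 bp in Slc38a9, 31 bp in Spats2, 21 bp in Rassf8 and 26 bp in Ctnna2. Such a spacing can be a multiple of the unit, as in Map6, where the central 20 bases occur 29968 times on chromosomes 1 to 19 and 23 times in the tile and its neighbours. The other 4 rises held no tandem window. Tandem windows were present in 4.09% of the deep intronic tiles tested, in 8.26% of those higher and 19% of those lower at an unadjusted p under 0.05. Over the whole grid, 9 of the 10 tiles that fell and 4 of the 61 that rose held one, beside 2.52% of all tiles tested, 5.26% of those higher and 9.11% of those lower at an unadjusted p under 0.05. How copy number of these arrays differs between animals was not tested.

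Windows of 200 bp are shown for Rassf8 and Ncoa1, as examples of a rise and a fall in a tandem array, and for Galnt2 and Vmp1, rises outside one (mm10, forward strand, chr6:145769471-145769670, chr12:4292401-4292600, chr8:124265944-124266143 and chr11:86587088-86587287). Capitals mark the same words as above.
Rassf8: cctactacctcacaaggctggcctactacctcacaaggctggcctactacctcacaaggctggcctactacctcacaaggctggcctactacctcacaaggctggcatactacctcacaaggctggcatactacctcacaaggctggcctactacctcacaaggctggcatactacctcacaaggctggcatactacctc
Ncoa1: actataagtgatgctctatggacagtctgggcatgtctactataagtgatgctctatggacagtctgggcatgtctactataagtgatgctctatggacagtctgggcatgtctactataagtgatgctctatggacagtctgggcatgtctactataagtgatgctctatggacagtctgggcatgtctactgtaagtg
Galnt2: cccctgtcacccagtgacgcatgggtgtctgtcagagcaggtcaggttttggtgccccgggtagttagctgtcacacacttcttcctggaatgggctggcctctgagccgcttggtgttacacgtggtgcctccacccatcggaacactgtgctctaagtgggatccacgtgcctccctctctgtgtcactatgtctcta
Vmp1: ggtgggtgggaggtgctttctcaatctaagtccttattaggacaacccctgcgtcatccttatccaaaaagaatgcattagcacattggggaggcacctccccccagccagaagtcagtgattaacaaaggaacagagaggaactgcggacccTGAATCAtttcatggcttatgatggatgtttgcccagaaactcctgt
The central 20 bases of the Ncoa1 window occur 22 times on chromosomes 1 to 19, all in the tile and its neighbours, and those of Rassf8 11 times, likewise. Those of Galnt2 and of Vmp1 occur 1 time.

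The Vmp1 tile, chr11:86587001-86588000, lies in intron 11 of 12, and its window holds TGAATCA, which matches the relaxed AP-1 word and not the consensus. Mir21a, which encodes the microRNA miR-21 and lies on the same strand as Vmp1, starts its annotated hairpin 2843 bp from the tile, downstream in that direction. The gene as a whole was the one with the smallest p. Over its 67 deep intronic tiles Vmp1 averaged 1.12, 1.46, 2.85 and 3.16 in the 4 SOX9 libraries, in the same order, with 0, 0.602, 2.1 and 0 in the controls. The log2 change was 1.17 ± 0.17 (SE; 1.28 in M and 1.07 in F), with an unadjusted p of 4.62e-05 and a limma adjusted p of 0.213, which missed the threshold. Over 10 alternative settings the adjusted p ran from 1.64e-06 to 1.0. It was 0.590 without uninjured M, 0.457 without uninjured F, 1.01e-04 without 1 d.p.i. M and 0.00213 without 1 d.p.i. F.

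Of 4612 genes, limma called 0 higher (0%) and 0 lower (0%) at an adjusted p under 0.05, and 151 higher (3.27%) and 101 lower (2.19%) at an unadjusted p under 0.05. With scaling by a trimmed mean of log ratios these were 90 and 100. The adjusted count did depend on the fit, with 4 genes higher and 2 lower when sex was a block, and 3 higher among genes with at least 50 tiles. The count was 2 higher and 5 lower without 1 d.p.i. M, 5 higher and 2 lower without 1 d.p.i. F, and 0 without either uninjured library. The median log2 change was 0.01, with 52.1% of genes above 0. With scaling by a trimmed mean of log ratios it was -0.0292, with 45.4% above 0. Without uninjured M it was 0.0697, and without uninjured F -0.0404. The lists below are set beside the 52.1% only.

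After Vmp1, the smallest p among higher genes belonged to Dusp1, an immediate early phosphatase of MAP kinases, whose annotated model spans 56.5 kb (2.07, 1.94, 3.53 and 3.77; log2 change 0.84, limma adjusted p = 0.478), and to the muscle anchoring protein gene Nrap (1.19, 1.21, 1.99 and 2.44; 0.82, adjusted p = 0.478). Dusp1 had no coverage in the controls. The smallest p among lower genes belonged to the T cell surface gene Cd6 (1.89, 1.41, 0.768 and 0.794; -0.97, adjusted p = 0.478), Stum (2.22, 2.65, 1.5 and 1.20; -0.81, adjusted p = 0.478) and the corticotropin-releasing hormone receptor gene Crhr1 (2.41, 2.36, 1.38 and 1.57; -0.66, adjusted p = 0.714). In all 6 genes the groups did not overlap, which selection by p favours. With sex as a block, the limma adjusted p was 0.0117 in Nrap, 0.0117 in Cd6 and 0.0135 in Stum, and it reached 1.0 in other settings for each. Left-out fits, in which 1 library stands alone in its group and the other group gives the spread, put Cd6 at 0.0400 without 1 d.p.i. F, and Nrap and Stum at 0.0247 without 1 d.p.i. M.

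Of the gene lists, none held a gene past the threshold, adjusted or unadjusted (limma). The lists were chosen with earlier results of these data known, so the shares of each list that follow are a description and not a test. Injury response genes had a positive log2 change in 10 of 11 (median 0.22; 0.19 in M and 0.38 in F), beside 52.1% of all genes, and pooled coverage of 1.62, 1.69, 1.89 and 1.79, with 1.83, 1.54, 1.3 and 2.02 in the controls. Among them Runx1, a transcription factor of blood and microglia, had 0.711, 0.514, 0.921 and 0.894 (log2 change 0.51, limma adjusted p = 0.895), and Tnc, the matrix protein tenascin C, 0.717, 0.777, 0.986 and 1.04. Neuronal genes had a negative value in 18 of 20 (median -0.15; -0.14 in M and -0.19 in F), with pooled coverage of 0.951, 0.999, 0.866 and 0.895 and control values of 0.848, 0.897, 0.762 and 1.06. Astrocyte genes were positive in 14 of 18 (median 0.14), oligodendrocyte genes in 12 of 18 (0.11), microglia genes in 10 of 15 (0.12), endothelial and mural genes in 6 of 11 (0.04), ependymal genes in 8 of 11 (0.14) and genes of other tissues in 9 of 15 (0.10). The share of cell types in the tissue was not measured, and its part in these values was not tested.

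Some of the enhancers that the study cloned lie in deep introns. Of 22 mouse elements in its supplementary table, among them injury-responsive enhancers (IRENs), 11 overlapped 19 deep intronic tiles, of which 7 were high enough to be tested. The element IREN5, chr2:102872975-102873741, lies in intron 1 of Cd44, the hyaluronan receptor of reactive glia, and the tile with most of it had 2.67, 3.29, 12.5 and 9.94 in the 4 SOX9 libraries, in the same order, from 3, 10, 12 and 9 fragments, and 33.5 in the uninjured F control, the only control with coverage there. Both 1 d.p.i. values were above both uninjured values (log2 change 1.75 ± 0.64 SE, unadjusted p = 0.00604, limma adjusted p = 0.855). The neighbouring tile, which holds 26 bp of the element, had 3.03, 2.3, 4.85 and 5.38 (0.84, limma adjusted p = 0.999).

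IREN21 in intron 1 of Cdh22, a cadherin gene, filled a tile at 6.27, 3.32, 8.58 and 5.07 (log2 change 0.48, limma adjusted p = 0.999), beside 1.33 and 0.69 in the tiles that hold 3 and 27 bp of it, and IREN23 in Syt2, a synaptotagmin gene, had its main tile at 6.49, 5.64, 6.07 and 3.65 (-0.33, adjusted p = 0.999). The other IREN23 tile, with 224 bp of the element, had 2.64, 6.9, 4.73 and 5.6 (0.23, limma adjusted p = 0.999). The groups overlapped in each of the 3 tiles whose values are given. The other 8 elements, in Amotl1, Kif18b, Myo10, Ube3b, Hrh1, Trpm6, Cdkal1 and, for the element A4, Gli3, lay in tiles that averaged 0.268 (Kif18b) to 2.87 (Ube3b) over the SOX9 libraries, from at most 8 fragments a library. Windows around the highest coverage of the IREN5 and IREN21 tiles are shown because these are the cloned elements with the most coverage (mm10, forward strand, chr2:102873610-102873809 and chr2:165189898-165190097).
Cd44 IREN5: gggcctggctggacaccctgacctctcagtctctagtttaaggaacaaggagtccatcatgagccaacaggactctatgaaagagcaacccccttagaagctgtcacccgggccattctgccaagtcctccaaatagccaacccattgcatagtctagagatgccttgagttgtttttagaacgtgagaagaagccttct
Cdh22 IREN21: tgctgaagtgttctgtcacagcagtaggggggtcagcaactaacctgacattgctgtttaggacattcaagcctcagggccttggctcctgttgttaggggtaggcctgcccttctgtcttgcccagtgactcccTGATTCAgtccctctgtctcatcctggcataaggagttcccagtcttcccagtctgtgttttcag
Both windows run past the end of their element and hold only part of it. In IREN5 the paper's model placed motifs for AP-1, SOX9 and nuclear factor I, and ablating them lowered reporter labelling in vivo. Words in the rest of each element are not shown here. TGATTCA in the IREN21 window lies outside the element and fits only the relaxed word.

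Either strand of ACAATG was found in 48.4% of deep intronic tiles, 47.7% of all tiles and 37.3% of the deep intronic tiles high in all SOX9 libraries, which are richer in GC. By GC content, it was in 57% of 237 high tiles at 38 to 42% GC (beside 52.3% of all deep intronic tiles of that GC), 49.8% of 1127 at 42 to 46% (47.6%), 42.1% of 2755 at 46 to 50% (40.4%) and 30.6% of 4876 at 50% or more (33.2%), so the sign of the difference turned in the band that holds most high tiles. The letters in reverse order, GTAACA on either strand, gave 38.4% (36.4%), 32.6% (33.6%), 32.0% (29.8%) and 22.0% (24.3%) in these bands. TGANTCA was found in 27.1% of deep intronic tiles and 27.7% of high ones. In the same 4 bands it was in 40.5% of high tiles (beside 27.7%), 32.0% (26.9%), 29.3% (26.4%) and 25.1% (23.6%), so the gap was small where most high tiles lie. Its reversed form ACTNAGT gave 23.2% (25.6%), 26.3% (24.9%), 24.4% (23.7%) and 20.1% (21%). These shares are a description of tiles that share base composition.

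Coverage at the words themselves was compared over libraries, in the 50 bp around each unmasked word against flanks 400 to 500 bp away, as another choice made after the data were seen. At 289759 SOX words in deep introns the log2 ratio was -0.02, 0.03, 0.01 and -0.02 in the SOX9 libraries and 0.05, 0.01, 0.10 and -0.01 in the controls (difference -0.04, exact two-sided permutation test, n = 4 against 4, p = 0.200, adjusted 0.800 over 8 tests). At 146531 AP-1 words it was 0.04, 0.12, 0.13 and 0.10 with SOX9 and 0.16, 0.18, 0.02 and 0.10 in controls (difference -0.02, exact permutation test, n = 4 against 4, p = 0.629, adjusted 0.889). The smallest p of the 8 was that of the reversed AP-1 word, lower with SOX9 than in controls (-0.12, exact permutation test, n = 4 against 4, p = 0.0286, adjusted 0.229). At SOX words the SOX9 libraries alone averaged 0.000117 ± 0.0237 (SD, n = 4), and the controls 0.0381 ± 0.0479 (SD, n = 4). The controls shared most isolated fragments with SOX9 libraries, so the comparison with them cannot decide whether SOX9 raised coverage there. The part of depth was not tested.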

How the data were processed

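The authors aligned reads to mm10 with Bowtie2 (2.5.4) and removed duplicates with Picard (3.4.0), and the deposited table gives coverage of 8 CUT&Tag libraries in whole numbers, not scaled to depth. Coverage per 1-kb tile was divided by the library mean, with genes from GENCODE M21. The members and lists were chosen with earlier results of these data known. Library values were compared by exact two-sided permutation or sign-flip tests. Tiles and genes were fitted with limma (3.58.1, R 4.3.3, trend) on the 4 SOX9 libraries, as log2 of coverage plus 0.5 (tiles averaging at least 3) or 0.1 (genes with at least 20 tiles), with Benjamini-Hochberg adjustment, after tests on simulated data. Other steps used Python 3.11.15, numpy 2.4.6, scipy 1.17.1 and pandas 2.3.3. Named are the 8 tiles and 8 genes with the highest minimum over the SOX9 libraries, the 5 genes with the lowest maximum, also without unsequenced bases, up to 5 tiles each way with the smallest adjusted p, the 3 genes each way with the smallest unadjusted p, and the ends of each list of astrocyte, oligodendrocyte lineage, neuron, microglia and immune, endothelial and mural, ependymal and cilia, injury response and other-tissue genes. Not every item these rules name is shown. GC, repeat, tandem and motif comparisons, and other named genes, were chosen after the data were seen.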

Additional observations from a re-analysis of the deposited data

Results flagged for a closer look

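Some changes between uninjured and 1 d.p.i. had opposite signs in the M and F libraries, and none of these differences between sexes was tested, since each rests on 1 library per condition and sex. The log2 ratio of the longest to the shortest genes changed by -0.14 in M and 0.12 in F, and that of the longest to the shortest introns by -0.071 and 0.0818. The share of tiles at 3 times the library mean or more changed by -1.03 percentage points in M and 2.33 in F. The ratio of GC-rich to GC-poor tiles changed by 0.43 in M and -0.39 in F, and that of masked to unmasked tiles by -0.64 and 0.75. Uninjured F was also the deepest library, and with libraries thinned to equal depth the shares of high tiles were 11.1%, 11.2%, 11.2% and 11.1%. For the other measures the part of depth was not tested. The median log2 change of genes was -0.0472 in M and 0.0894 in F over all genes, -0.0643 and 0.28 over microglia and immune genes, -0.38 and 0.50 over endothelial and mural genes, -0.22 and 0.45 over ependymal and cilia genes, and -0.33 and 0.38 over genes typical of other tissues.

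Limits of these data bear on every value above. With 2 libraries per group, the smallest p of an exact comparison of conditions over libraries is 0.333, and although animals were pooled within a condition, the number in each library was not stated. Controls were shallow and shared most of their isolated fragments with SOX9 libraries, and how far they measure background was not tested. Coverage was taken from aligned fragments, and how reads in repeats were placed was not tested. Neither the share of cell types nor transcription of the genes was measured in these libraries, and tile values at 1 d.p.i. rested on few fragments.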

How the results depend on the processing

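Over the alternatives other than leaving out a library, the condition difference in the level of deep intronic tiles ran from 0.00126 to 0.00603, and SOX9 against control from 0.0174 to 0.0508. Against intergenic tiles the range was 0.881 to 1.22, and against promoter surroundings -0.373 to -0.233. The gene length ratio ran from -0.778 to -0.00287 and the intron length ratio from -0.473 to -0.0403, the weakest values being those within 38 to 42% GC. Leaving out each SOX9 library in turn, the difference between conditions ran from 0.0044 to 0.00566, SOX9 against control from 0.0382 to 0.0403, deep introns against intergenic tiles from 1.07 to 1.23 and against promoter surroundings from -0.305 to -0.282. The gene length ratio ran from -0.71 to -0.665 and the intron length ratio from -0.407 to -0.377. With nuclei samples as replicate blocks, SOX9 against control was 0.041 (exact sign-flip test, n = 4, p = 0.375), and for the masked share and tandem differences, 0.766 and 0.511 as pairs or groups by arithmetic alone, p went from 0.0286 to 0.13 (exact sign-flip tests, n = 4). Leaving out each control in turn, added after the data were seen, SOX9 against control ran from 0.00905 to 0.0725, by gene length from 0.0254 to 0.0686, by intron length from 0.00208 to 0.0133, by GC from -0.152 to -0.0281, by masked share from 0.741 to 0.8 and by tandem windows from 0.481 to 0.539.

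Small differences changed sign. With a TSS distance of 20 kb, the intron length ratio differed by -0.00295 between conditions and by -0.00642 between SOX9 and control, and within 38 to 42% GC by -0.026 between conditions. Thinning turned the difference in the share of high tiles to -0.03. Leaving out single SOX9 libraries, the ranges included 0 for the condition difference by gene length (-0.0745 to 0.0544; 0.0514 without 1 d.p.i. M), intron length (-0.0389 to 0.0498; -0.0266 without 1 d.p.i. F), share of high tiles (-1.01 to 2.31), GC (-0.247 to 0.282; -0.13 without 1 d.p.i. M) and masked share (-0.491 to 0.599; -0.0929 without 1 d.p.i. F), and for intron length against controls (-0.00676 to 0.0228; -0.00446 without 1 d.p.i. F). Gene length against controls ran from 0.0189 to 0.0642, GC against controls from -0.187 to -0.0109, masked share from 0.594 to 0.957, tandem windows from 0.489 to 0.55 and their condition difference from -0.168 to -0.0335. By fragment midpoints the masked share difference was 0.729 (exact permutation test, n = 4 against 4, p = 0.0571), and within 38 to 42% GC 0.682 (exact permutation test, n = 4 against 4, p = 0.0571).

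Counts of changed tiles depended on the settings. Against 6 higher and 4 lower deep intronic tiles, a minimum mean of 6 gave 3 and 2, scaling by a trimmed mean of log ratios 2 and 1, and sex as a replicate block 3 and 2. The fit was 0 and 0 with any coverage admitted (5906 and 5978 at an unadjusted p under 0.05, limma), with all 8 libraries (2783 and 2284) and without a mean-variance trend (923 and 800), and 0 lower without tandem windows (535), which all 4 lower tiles hold. Leaving out each SOX9 library gave 0 to 115 higher and 0 to 21 lower tiles, and 0 to 5 higher and 0 to 5 lower genes. Single counts were 3 and 0 without uninjured M, 115 and 14 without uninjured F, 0 and 21 without 1 d.p.i. M and 0 and 2 without 1 d.p.i. F for tiles, and 2 and 5 without 1 d.p.i. M and 5 and 2 without 1 d.p.i. F for genes. Genes with at least 50 tiles gave 3 higher, and sex as a replicate block 4 higher and 2 lower.

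Of the levels, the Cdk8 tile moved to 212 when fragments were counted by midpoint, and without unsequenced or uncovered tiles the medians were 0.909 (all genes), 0.885 (astrocyte), 1.45 (oligodendrocyte lineage) and 0.904 (neuron).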
